A study of Mus musculus with 8 samples.

Results

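The Max network is a family of transcription factors that bind DNA as pairs through a basic helix-loop-helix zipper. MYC proteins pair with MAX and activate genes of growth and ribosome production, mostly through the E-box, a short DNA motif. MXD proteins, MNT and MGA pair with MAX as well, but recruit corepressors, so that they compete with MYC for partner and motif. A parallel arm, built on MLX, holds ChREBP (gene Mlxipl), which turns on genes of sugar and lipid metabolism when glucose is high. In rodent beta cells ChREBP responds to glucose, and MYC is known for driving proliferation and, when forced, loss of mature function.

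The genes described are 10 named members of this network, Myc, Mycl, Mycn, Max, Mxi1, Mxd1, Mxd3, Mxd4, Mga and Mlxipl, out of 55487 gene identifiers measured. They were chosen by name and matched through GENCODE M21, and all 10 were found. RNA sequencing measured them in flow-sorted pancreatic beta cells of tamoxifen-treated mice, in 4 Chd4KO libraries, from mice that lost Chd4 in beta cells, and in 4 Control libraries. CHD4 slides nucleosomes along DNA and powers NuRD, a complex that also removes acetyl groups from histones. Both groups received tamoxifen; the Cre line, the alleles of the Controls, the strain and the age are not given in the sources used here. The title of each library carries its own number, and the titles do not say what it marks. The numbers of Chd4KO and Control libraries do not overlap, so whatever they mark cannot be told apart from genotype.

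Levels are in TPM, transcript abundance corrected for gene length and scaled to the same total in each library, so that genes can be compared. Between 14928092 and 20164428 gene reads were recovered from the TPM values of a Chd4KO library and between 16392746 and 41014291 from those of a Control library (exact permutation p = 0.0857, two-sided, where 4 against 4 libraries cannot go below 0.0286). Chd4, the targeted gene, lay between 2.59 and 8.38 TPM in Chd4KO libraries and between 11.1 and 15.98 TPM in Control libraries, without overlap, but missed the threshold used below (log2 change -1.18 ± 0.29, SE, limma adjusted p = 0.0725). Each library carried the beta cell label's defining genes, with Ins1 and Ins2 taking 32.4 to 62.0% of TPM in Chd4KO and 38.1 to 41.8% in Control. The highest of those shares was that of Chd4KO replicate 4, and since TPM adds up to a fixed total, every other gene shares the remainder. The insulin share does not stand for all beta cell markers. Of 10 such markers, 7 had a negative and 3 a positive estimate in the test used below, with a median log2 change of -0.62. By that test 2 were called lower and 0 higher, against 1.44% called lower and 1.53% called higher over all genes tested. Marker transcripts of the digestive acinar cells that surround islets summed to 39405 TPM in Chd4KO replicate 2 and to 1537 TPM in Control replicate 2. The sums of the other 6 libraries ran from 1.92 to 228 TPM. In bulk RNA, fewer cells that express a gene and less RNA per cell cannot be told apart.

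Sequences of the promoters show where the network's own motif occurs. The E-box searched was CACGTG, which reads the same on both strands, in RefSeq windows of 300 bases (250 before and 50 after the transcript start, build GRCm38.p6). It was present in 7.15% of 32851 windows of all genes. Of the members, 9 of 10 had a window (12 windows in all; Myc had none), and the motif was in a window of 3 members, Max, Mxd4 and Mlxipl. Among 3 further network genes measured beside them, Mnt and Mlx held it and Mlxip did not. The motif with 12 bases on each side is printed for these 5 genes, because pairs that hold MAX bind this word. Sequences run 5′ to 3′ on the gene's strand, with the E-box in capitals:
Max (chr12:76962234-76962263, minus strand): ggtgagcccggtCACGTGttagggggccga
Mxd4 (chr5:34187912-34187941, minus strand): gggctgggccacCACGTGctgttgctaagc
Mlxipl (chr5:135089780-135089809, plus strand): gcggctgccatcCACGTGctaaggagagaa
Mnt (chr11:74830789-74830818, plus strand): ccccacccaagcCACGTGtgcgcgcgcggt
Mlx (chr11:101087238-101087267, plus strand): ggtgggttggatCACGTGactgagcctcgc

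The distance from the first base of the motif to the transcript start was 3 bases for Max, 40 for Mlx, 98 for Mlxipl, 123 for Mnt and 219 for Mxd4. Matches of this kind describe letters, not binding. The window of Mycl had no CACGTG.

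Mycl was the 1 member that passed the test, with more transcript in Chd4KO beta cells, and it entered the test only through its Chd4KO levels. Without a filter on low values it was not called (limma adjusted p = 0.0748). The comparison asked which members differ between Chd4KO and Control. Every gene with at least 1 TPM in at least 4 of the 8 libraries was fitted with limma on log2(TPM + 1), and a Benjamini-Hochberg adjusted p under 0.05 over all genes tested was called a change. Of the 10 members 9 passed that filter and Mycn did not. Of the 9, 1 was called, Mycl, which was higher; over all 15189 genes tested, 2.97% were called, with 1.53% higher and 1.44% lower. Of the 9 estimates, 6 lay below 0 and 3 above it, while 74.8% of all genes tested lay below 0. The median change was -0.16 for the 9 members and -0.25 for all genes tested (log2, Chd4KO minus Control), so changes are also given relative to the median gene.

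**Figure D1:**
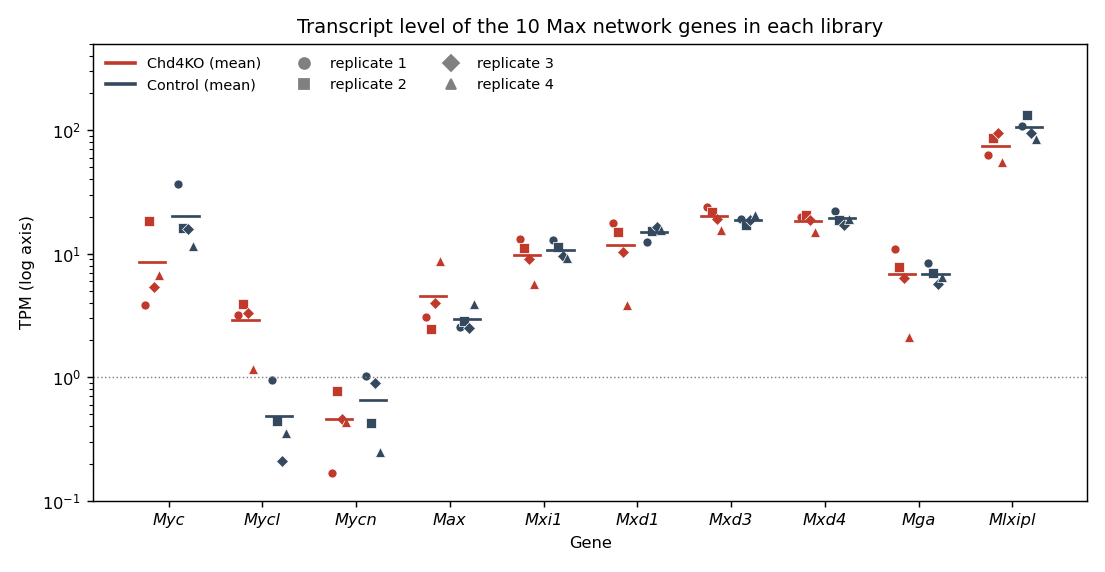
TPM (log axis) of each of the 10 members in the 4 Chd4KO and 4 Control libraries, with a bar at each group mean, a marker shape for each replicate number, and a dotted line at 1 TPM. Mycl is the member whose Chd4KO points, 1.17 to 3.89 TPM, all lie above its Control points, 0.211 to 0.944 TPM.

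Mycl encodes L-MYC, the MYC relative that activates growth genes more weakly than c-MYC (ENSMUSG00000028654, mm10 chromosome 4, 122995652 to 123002485, plus strand). It had 3.18, 3.89, 3.29 and 1.17 TPM in Chd4KO replicates 1 to 4, against 0.944, 0.441, 0.211 and 0.357 TPM in Control replicates 1 to 4. The groups did not overlap, as for 14.8% of all genes tested (3.54% with every Chd4KO value above and 11.3% with every Chd4KO value below), and the nearest values were those of Chd4KO replicate 4 and Control replicate 1. These values rest on 93, 111, 96 and 56 reads in the Chd4KO libraries and on 27, 33, 10 and 23 reads in the Control libraries, so the Control levels carry a large counting error. The means were 2.88 ± 1.18 TPM in Chd4KO and 0.488 ± 0.318 TPM in Control (SD, n = 4 each), a ratio of 5.91. By limma the estimate was 1.34 ± 0.29 on the log2 scale (SE, adjusted p = 0.0412), which is 1.596 above the median gene, with a 95% interval of 0.70 to 1.99.

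The Mycl call was close to its threshold. No Control library reached 1 TPM of Mycl, so it entered the test only because all 4 Chd4KO libraries reached 1 TPM. For such genes the groups had to differ, and of the 128 tested genes under 1 TPM in every Control library 77.3% were called higher. Mycl was tested in 22 alternative analyses and kept its call in 9, with a log2 change between 1.21 and 2.97 and no change of sign. With 1 Control library left out at a time, replicates 1 to 4 in order, the limma adjusted p was 0.0688, 0.143, 0.148 and 0.144. With the filter lowered to 3 libraries, leaving out Chd4KO replicates 1 to 4 in turn gave limma adjusted p-values of 0.0831, 0.0811, 0.128 and 0.0031. Scaling of the libraries by the median of ratios gave a limma adjusted p of 0.00313, and limma's voom on recovered reads gave 0.00187. Both kept the filter of 1 TPM in 4 libraries, so Mycl entered them through its Chd4KO levels as well.

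The summed markers of leukocytes, some of which express Mycl, did not overlap between the groups either. They came to 77.4 to 110 TPM in Chd4KO libraries and 35.4 to 58.8 TPM in Control libraries, and Fcer1g made up much of the sum, with 23.8 to 63.2 TPM in Chd4KO and 12.2 to 23.7 TPM in Control. Of the 6 markers tested out of 10, 2 were called, Cd68 and Fcer1g, both higher. Over all genes tested 1.53% were called higher. Lyz2, Csf1r, Cd79a and Cd74 did not pass, with estimates of 0.15, -0.098, 1.68 and -0.21 on the log2 scale. The groups of Cd79a nonetheless did not overlap, at 5.87 to 26.1 TPM in Chd4KO and 1.16 to 3.15 TPM in Control. Groups without overlap were found for 3 of the 6, against 14.8% of all genes tested. None of the 10 was at 0 in every library, and Cd3e, a T cell marker below the filter, averaged 0.0708 TPM in Chd4KO and 0.407 TPM in Control. Ptprc, the antigen common to leukocytes, lay between 0 and 0.158 TPM in Chd4KO and between 0.0231 and 0.831 TPM in Control. Markers of mesenchymal cells summed to 0.816 to 1.31 TPM in Chd4KO and 0.148 to 0.554 TPM in Control, with 0 of 7 past the filter. Endothelial markers summed to 6.38 to 9.54 TPM in Chd4KO and 5.58 to 6.09 TPM in Control. The part of these cells in the Mycl value was not tested. With the filter lowered to 2 libraries, the change in Mycl was 1.53 (log2) without Chd4KO replicates 2 and 4, the libraries with the most acinar and the most insulin transcript (limma adjusted p = 0.0122).

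Myc itself, the c-MYC gene (ENSMUSG00000022346, mm10 chromosome 15, 61985391 to 61990374, plus strand), had lower values in most Chd4KO libraries but did not pass the test. It had 3.86, 18.6, 5.35 and 6.74 TPM in Chd4KO replicates 1 to 4, against 37.0, 16.3, 15.97 and 11.6 TPM in Control replicates 1 to 4. In TPM the groups overlapped through Chd4KO replicate 2, the library with the acinar transcripts, and Control replicate 1 stood above the rest of its group. After median-of-ratios scaling they overlapped through Chd4KO replicate 4 as well, at 12.4 against 10.8 in Control replicate 4. The means were 8.64 ± 6.74 TPM in Chd4KO and 20.2 ± 11.4 TPM in Control (SD, n = 4 each), so that the Chd4KO mean was 42.7% of the Control mean. By limma the estimate was -1.23 ± 0.47 on the log2 scale (SE, adjusted p = 0.248) and -0.97 once the median gene was taken off, with a 95% interval of -2.30 to -0.16 before adjustment for the number of genes. Without Chd4KO replicate 2 it was -1.64 (limma adjusted p = 0.0778), and over 27 alternatives it stayed negative, from -1.80 to -0.90, and was called in 0 of them. The part of the acinar cells in the Myc value was not tested.

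Mycn, the N-MYC gene of embryonic and neural tissue (ENSMUSG00000037169, mm10 chromosome 12), was scarce in both groups. It had 0.167, 0.773, 0.463 and 0.436 TPM in Chd4KO replicates 1 to 4, against 1.03, 0.426, 0.906 and 0.247 TPM in Control replicates 1 to 4. The groups overlapped in part, with Control replicates 1 and 3 above every Chd4KO library and Chd4KO replicate 1 below every Control library. Those values came from 4 to 18 reads in Chd4KO libraries and 13 to 35 reads in Control libraries. Without the filter its log2 change was -0.17 ± 0.19 (SE, limma adjusted p = 0.734), with a 95% interval of -0.62 to 0.29.

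The share of Mycl among the MYC transcripts did not overlap between the groups. As a share of the summed TPM of Myc, Mycl and Mycn, Mycl made up 44.1, 16.7, 36.2 and 14.02% in Chd4KO replicates 1 to 4, against 2.42, 2.57, 1.24 and 2.92% in Control replicates 1 to 4. Myc made up 53.6 to 80.8% in Chd4KO and 93.5 to 95.05% in Control, and Mycn 2.32 to 5.22% in Chd4KO and 2.03 to 5.30% in Control. A share within a library does not depend on how the library was scaled. It does not separate more Mycl from less Myc, and Myc values are part of it. The summed level of the 3 genes was 7.20 to 23.3 TPM in Chd4KO and 12.2 to 39.0 TPM in Control, with overlap.

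**Figure D2:**
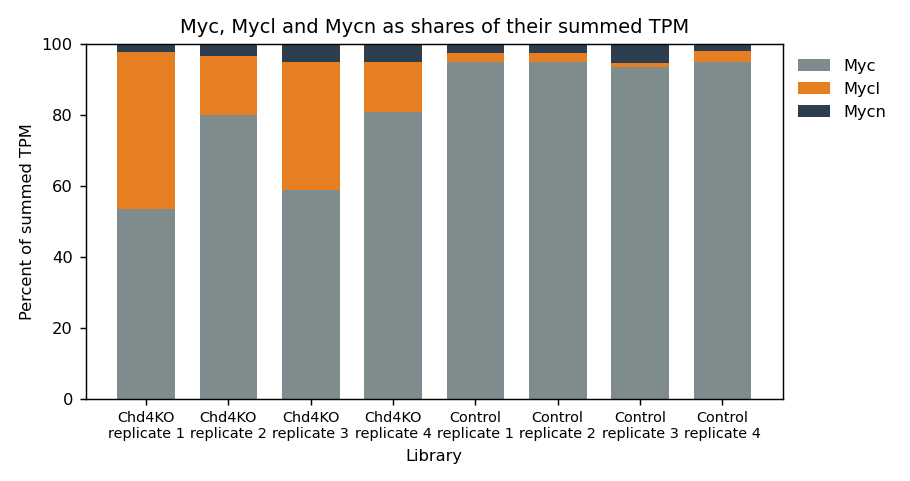
Stacked bars of the percent of summed Myc, Mycl and Mycn TPM that each gene takes, for the 4 Chd4KO libraries on the left and the 4 Control libraries on the right. The Mycl part is 14.02 to 44.1% in Chd4KO and 1.24 to 2.92% in Control, while Myc is the largest part in each of the 8 libraries.

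Max, the partner that MYC, MXD, MNT and MGA proteins share (ENSMUSG00000059436, mm10 chromosome 12, 76937269 to 76962201, minus strand), did not pass the test and had 1 high Chd4KO library. It had 3.07, 2.48, 3.97 and 8.75 TPM in Chd4KO replicates 1 to 4, against 2.55, 2.83, 2.51 and 3.90 TPM in Control replicates 1 to 4. Chd4KO replicate 4 lay above every other library, and the other 7 overlapped. That library held 373 reads of Max, so the value is not one of few counts. It is also the library in which 7 of the 10 members had their lowest Chd4KO value in TPM. The same count was not made over all genes, so it does not mark a trait of the members. Chd4KO replicate 4 had the fewest genes at 1 TPM or more, 12702, and the highest share of insulin transcript. Means were 4.57 ± 2.86 TPM in Chd4KO and 2.95 ± 0.65 TPM in Control (SD, n = 4 each). The log2 change was 0.39 ± 0.32 (SE, limma adjusted p = 0.535), with a 95% interval of -0.33 to 1.11.

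The 4 MXD members, repressors that pair with MAX and recruit the SIN3 corepressor, varied little among Control libraries and did not pass the test. Mxd3 had 24.0, 21.8, 19.2 and 15.5 TPM in Chd4KO replicates 1 to 4, against 19.3, 16.97, 18.8 and 20.5 TPM in Control replicates 1 to 4. Mxd4 had 19.7, 20.8, 18.8 and 14.98 TPM in Chd4KO, against 22.1, 18.8, 17.1 and 19.2 TPM in Control. For both genes the groups overlapped in TPM, and the lowest TPM of the 8 was that of Chd4KO replicate 4. After median-of-ratios scaling that library was instead the highest of the 8, at 28.5 for Mxd3 and 27.5 for Mxd4. Scaled Mxd3 then lay between 19.5 and 28.5 in Chd4KO and between 15.2 and 19.2 in Control. Scaled Mxd4 lay between 16.6 and 27.5 in Chd4KO and between 15.9 and 18.4 in Control. The log2 changes were 0.07 ± 0.19 for Mxd3 and -0.06 ± 0.18 for Mxd4 (SE), with 95% intervals of -0.35 to 0.49 and -0.46 to 0.34, the narrowest among the 9 tested members (limma adjusted p = 0.838 for Mxd3 and 0.864 for Mxd4).

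Mxd1, induced in many tissues when cells leave the cycle, had 17.9, 14.95, 10.3 and 3.87 TPM in Chd4KO replicates 1 to 4, against 12.6, 15.4, 16.6 and 15.7 TPM in Control replicates 1 to 4. Mxi1, also named MXD2, had 13.1, 11.2, 9.14 and 5.72 TPM in Chd4KO, against 12.97, 11.4, 9.68 and 9.22 TPM in Control. In TPM, Chd4KO replicate 4 was again the lowest of the 8 for both, and Chd4KO replicate 1 the highest. The Chd4KO libraries thus spread over a wider range of TPM than the Control libraries. The log2 changes were -0.50 ± 0.39 for Mxd1 (limma adjusted p = 0.517) and -0.17 ± 0.25 for Mxi1 (SE, limma adjusted p = 0.722). Their 95% intervals were -1.38 to 0.38 and -0.74 to 0.40. After median-of-ratios scaling, Mxi1 lay between 9.51 and 11.0 in Chd4KO and between 8.62 and 10.8 in Control, on the scaled TPM scale. The 4 MXD members summed to 74.7, 68.8, 57.5 and 40.1 TPM in Chd4KO replicates 1 to 4, against 67.0, 62.6, 62.2 and 64.7 TPM in Control replicates 1 to 4. Summed MXD transcript thus exceeded summed MYC transcript in each library. These sums were not scaled by the median of ratios.

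Mga, a very large protein with a T-box beside its zipper that joins MAX to a Polycomb complex, had 10.96, 7.88, 6.31 and 2.10 TPM in Chd4KO replicates 1 to 4, against 8.40, 6.98, 5.75 and 6.51 TPM in Control replicates 1 to 4. The groups overlapped, and both the highest and the lowest value came from Chd4KO. The log2 change was -0.16 ± 0.38 (SE, limma adjusted p = 0.821), with a 95% interval of -1.02 to 0.69. Without Chd4KO replicate 4 it was 0.23, so the sign rests on that library. The signs of Mxi1, Mxd4 and Mga also turned positive under median-of-ratios and quantile scaling.

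Mlxipl, which encodes ChREBP (ENSMUSG00000005373, mm10 chromosome 5, 135089890 to 135138382, plus strand), was the most abundant member. It had 63.6, 86.8, 94.6 and 55.3 TPM in Chd4KO replicates 1 to 4, against 108, 133, 95.7 and 85.7 TPM in Control replicates 1 to 4. The groups overlapped between 85.7 and 94.6 TPM. Means were 75.1 ± 18.6 TPM in Chd4KO and 106 ± 20.6 TPM in Control (SD, n = 4 each), so that the Chd4KO mean was 71.0% of the Control mean. Limma estimated -0.50 ± 0.24 on the log2 scale (SE, adjusted p = 0.332) and -0.25 once the median gene was taken off, with a 95% interval of -1.03 to 0.03. It was negative in each of 27 alternatives, from -0.62 to -0.197, and called in 0 of them. After median-of-ratios scaling its values were 53.5, 77.5, 98.5 and 101.5 in Chd4KO replicates 1 to 4, against 80.1 to 119 in Control libraries. Chd4KO replicates 1 and 2 thus stayed below every Control library. In Chd4KO replicate 4 Ins1 and Ins2 took 62.0% of TPM.

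**Figure D3:**
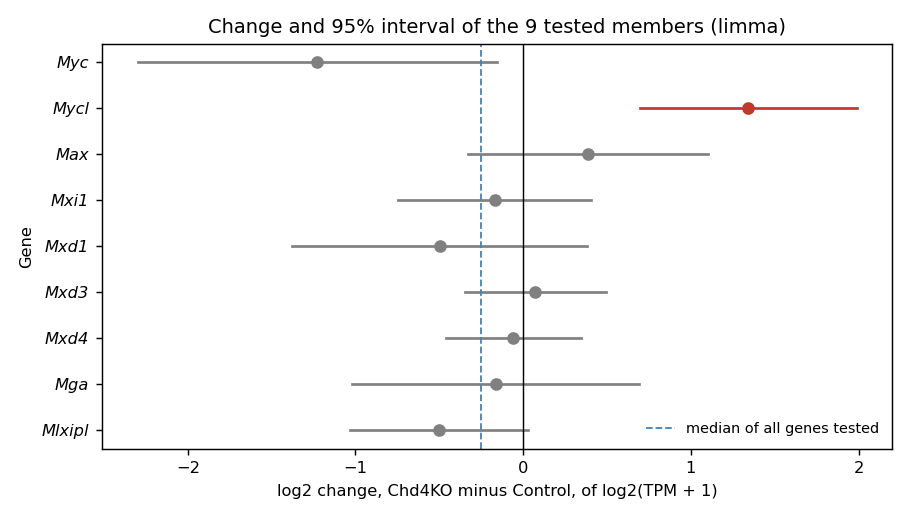
Log2 change (Chd4KO minus Control, on log2(TPM + 1)) of the 9 tested members, with points for limma's estimate, bars for its 95% interval, and a dashed line at the median of all genes tested, -0.25. Mycl, in red, is the called member at 1.34; Myc has the lowest estimate, -1.23, and the widest interval.

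Mlxipl was the most abundant member and Mycn and Mycl the least abundant in both groups. In Chd4KO the order of mean TPM ran from Mlxipl over Mxd3, Mxd4, Mxd1, Mxi1, Myc, Mga, Max and Mycl to Mycn. In Control it ran from Mlxipl over Myc, Mxd4, Mxd3, Mxd1, Mxi1, Mga and Max to Mycn and Mycl. Mlxipl stood clear of the next gene in each of the 4 libraries of both groups. In Chd4KO the ranges of all neighbours from Mxd3 down to Mycl overlapped, so those steps do not exceed the spread, and Mycl stood clear of Mycn. Within each of the 4 Chd4KO libraries Mxd3 was nonetheless above Mxd4, and Mxd4 above Mxd1. In Control the ranges of Myc, Mxd4 and Mxd3 overlapped, as did those of Mxd1 and Mxi1 and those of Mycn and Mycl, while the other neighbours stood apart. Myc held rank 6 in Chd4KO and rank 2 in Control, and Mycl rank 9 in Chd4KO and rank 10 in Control.

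By GENCODE M21, several members share sequence with overlapping genes, and the libraries do not mark strand. Exons of Mxd3 overlap those of Prelid1 on the opposite strand, which had 164 ± 22.9 TPM in Chd4KO and 152 ± 5.10 TPM in Control (SD, n = 4 each), several times the level of Mxd3. Exons of Mxi1 overlap Gm10197, at 85.0 ± 29.6 TPM in Chd4KO and 104 ± 11.4 TPM in Control. Exons of Mxd4 overlap the antisense gene Gm42846, at 64.7 ± 9.38 TPM in Chd4KO and 71.6 ± 12.1 TPM in Control. Exons of Mlxipl overlap the antisense gene Gm43500, at 170 ± 46.5 TPM in Chd4KO and 242 ± 83.5 TPM in Control. Reads within the shared stretches cannot be told apart, so the 4 members' levels are uncertain to that extent. The overlap lies within 55325168 to 55325272 for Mxd3 (2369 exon bases) and 53371566 to 53371766 for Mxi1 (6823). It lies within 34173887 to 34174887 for Mxd4 (8483) and 135122410 to 135123293 for Mlxipl (5538). No annotated gene overlaps Myc, Mycl, Mycn or Mga, and the genes that overlap Max and Mxd1 share no exon with them. Beside Mycl, the nearest protein-coding genes were Trit1, which modifies transfer RNA, and Mfsd2a, a lipid transporter. Trit1, 14112 bases downstream, had 16.7 ± 6.16 TPM in Chd4KO and 18.2 ± 0.716 TPM in Control (SD, n = 4 each). Mfsd2a, 34464 bases upstream, had 11.3 ± 18.6 TPM in Chd4KO and 2.03 ± 0.893 TPM in Control, with 39.1 TPM in Chd4KO replicate 1 and at most 3.23 TPM in the other 7 libraries. Neither passed the limma test, with adjusted p-values of 0.708 and 0.572.

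The profile of Mycl over the 8 libraries was nearest to those of Catsperd, Gm17099, Gm10865, Ffar4 and Gm49593. Likeness was the root mean square distance between log2(TPM + 1) profiles, each centred on its own mean, and was 0.17 to 0.21 for these 5 genes, against a median of 0.875 over 15188 genes compared. Ffar4, a receptor for long-chain fatty acids, had 54.2 ± 8.23 TPM in Chd4KO and 23.1 ± 6.65 TPM in Control. Catsperd, an accessory subunit of a sperm calcium channel, had 3.55 ± 1.096 TPM in Chd4KO and 0.754 ± 0.128 TPM in Control (SD, n = 4 each). The measure takes in the group difference of Mycl, so genes with a like difference come first. The 5 were picked as the smallest distances, so that they lie below the median was fixed in advance. No Control library reached 1 TPM of Catsperd, so it passed the filter through its Chd4KO levels, as Mycl did.

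The 3 further partners did not pass the test. Mnt, a repressor that pairs with MAX, had 3.88, 5.26, 2.34 and 0.420 TPM in Chd4KO replicates 1 to 4, against 2.84, 4.47, 3.74 and 4.58 TPM in Control replicates 1 to 4. Mlx, the obligate partner of ChREBP, had 59.9 ± 12.7 TPM in Chd4KO and 63.96 ± 7.39 TPM in Control, and Mlxip, which encodes the glucose sensor MondoA, 12.1 ± 5.94 TPM in Chd4KO and 12.6 ± 1.87 TPM in Control (SD, n = 4 each). Mlx was the partner nearest in level to Mlxipl. Limma adjusted p-values were 0.553 for Mnt, 0.776 for Mlx and 0.794 for Mlxip, and Mnt overlapped between groups with its lowest value in Chd4KO replicate 4.

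Genes that act on or with the network showed few calls, but the lists are short. Over all genes tested 2.97% were called and 16.2% had an unadjusted p under 0.05. A list of 10 to 15 tested genes without a call is therefore not set apart from other genes. For the 5 lists described here and the 3 partners, voom on recovered reads called 0 genes as well. None of 10 tested of 12 other E-box factors was called by limma, at a median change of -0.12 (log2), with 2 at an unadjusted p under 0.05. Among them Srebf1, the lipid-synthesis factor, had 67.6 ± 29.8 TPM in Chd4KO and 65.6 ± 5.03 TPM in Control, and Bhlhe40, a repressor tied to the circadian clock, 38.7 ± 26.7 TPM in Chd4KO and 55.9 ± 32.8 TPM in Control (SD, n = 4 each). None of 15 coactivators of MYC was called (median -0.18), with 0 at an unadjusted p under 0.05. The acetyltransferase gene Kat5 was at 33.1 ± 3.02 TPM in Chd4KO and 26.7 ± 1.32 TPM in Control (limma adjusted p = 0.391). It was the 1 gene of the 15 whose groups did not overlap, against 14.8% of all genes tested (3.54% with every Chd4KO value above). Paf1, an elongation factor, was at 35.7 ± 12.2 TPM in Chd4KO and 42.0 ± 1.61 TPM in Control. For 11 tested of 12 genes of MYC turnover the count was also 0 (median -0.38), with 1 at an unadjusted p under 0.05. The ubiquitin ligase gene Stub1 was at 240 ± 21.4 TPM in Chd4KO and 231 ± 14.6 TPM in Control (SD, n = 4 each).

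The corepressors of the MXD proteins were measured in full and held no call, with 12 of 12 tested, a median of -0.24 and 0 at an unadjusted p under 0.05. The shares over all genes tested were 2.97% called and 16.2% at an unadjusted p under 0.05. Several of them, Hdac1, Hdac2, Rbbp4 and Rbbp7, are also NuRD subunits. Rbbp7, a histone chaperone, had 157 ± 32.3 TPM in Chd4KO and 197 ± 34.1 TPM in Control, and the deacetylase gene Hdac1 51.7 ± 14.95 TPM in Chd4KO and 58.2 ± 7.92 TPM in Control (SD, n = 4 each). The Polycomb complex that MGA joins had 11 of 11 genes tested, with 0 called, a median of -0.21 and 0 at an unadjusted p under 0.05. Yaf2 of that complex had 43.3 ± 2.96 TPM in Chd4KO and 47.2 ± 1.99 TPM in Control, and Tfdp1, the partner of E2F factors, 28.5 ± 10.02 TPM in Chd4KO and 30.5 ± 3.91 TPM in Control.

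Targets of MYC in ribosome production and growth held no called gene, against 2.97% called over all genes tested. All 45 were tested, 39 had a negative and 6 a positive estimate, and the median was -0.38, against -0.25 for all genes tested. At an unadjusted p under 0.05 there were 3 of the 45, against 16.2% of all genes tested. They were Ppan, Ubtf and Tcof1, named after their values were seen, all lower. Ubtf, which opens ribosomal DNA for transcription, had 14.2 ± 5.15 TPM in Chd4KO and 26.1 ± 2.78 TPM in Control (SD, n = 4 each, limma adjusted p = 0.158). Odc1, the first enzyme of polyamine synthesis and a classic MYC target, had 119 ± 103 TPM in Chd4KO and 200 ± 37.8 TPM in Control (limma adjusted p = 0.381). Srm, the next enzyme of that pathway, had 140 ± 44.8 TPM in Chd4KO and 122 ± 28.97 TPM in Control (limma adjusted p = 0.779). With voom on recovered reads 1 of the 45 was called, Ubtf, also lower. The E-box CACGTG was in 22% of the 50 promoter windows found for this list, against 7.15% of all windows.

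ChREBP targets held 2 called genes of 24 tested, both higher, against 2.97% called and 1.53% called higher over all genes tested. Mlxipl itself is on this list and was not called. Thrsp, which promotes fatty acid synthesis, had 6.35 ± 1.29 TPM in Chd4KO and 0.540 ± 0.331 TPM in Control (SD, n = 4 each). Its estimate on the log2 scale was 2.26 ± 0.22 (SE, limma adjusted p = 0.00119), and it was called in 23 of the 23 alternatives that tested it. Pnpla3, a lipid droplet enzyme, had 4.22 ± 1.16 TPM in Chd4KO and 1.26 ± 0.258 TPM in Control, with an estimate of 1.18 ± 0.22 on the log2 scale (limma adjusted p = 0.0237), and was called in 12 of 26 alternatives. The Pnpla3 call ended when Chd4KO replicate 1 or 2 or any 1 Control replicate was left out, with limma adjusted p-values between 0.0635 and 0.104. No Control library reached 1 TPM of Thrsp either, so it came under the same filter limit as Mycl. The median change of the 24 genes was -0.14, with 13 negative and 11 positive, and the other 22 did not pass. With voom on recovered reads 4 of the list were called, among them Gpd1, an enzyme of glycerol phosphate metabolism, which was higher. Of the 27 promoter windows of this list 18.5% held CACGTG, and those of Thrsp and Pnpla3 did not. Only this exact word was searched, and only in these windows, so binding by ChREBP was not tested.

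Of 26 cell cycle genes downstream of MYC and MXD, 22 were tested and 2 were called, against 2.97% of all genes tested. Both encode inhibitors of cyclin-dependent kinases that moved in opposite directions. Cdkn2b, which encodes p15 and which MYC represses through MIZ1, fell to 12.7 ± 2.09 TPM in Chd4KO, against 26.5 ± 3.15 TPM in Control (SD, n = 4 each). Its log2 change was -1.02 ± 0.19 (SE, limma adjusted p = 0.0224), and it was called in 11 of 27 alternatives. The call ended under each of the 4 other scalings, voom included, with limma adjusted p-values between 0.0905 and 0.210. It also ended when Chd4KO replicate 2 or 3 or any 1 Control replicate was left out, with limma adjusted p-values between 0.0601 and 0.107. Cdkn1c, an imprinted gene that encodes p57, rose to 3.74 ± 0.994 TPM in Chd4KO, against 0.778 ± 0.350 TPM in Control. Its log2 change was 1.41 ± 0.23 (SE, limma adjusted p = 0.0132), and it was called in 21 of 26 alternatives. All 4 Chd4KO libraries but only 1 Control library reached 1 TPM of Cdkn1c, so it passed the filter through its Chd4KO levels. Its Control values rest on 11 to 45 reads. Without the filter the limma adjusted p of Cdkn1c was 0.0222. Without Chd4KO replicate 3, Control replicate 3 or Control replicate 4 the limma adjusted p was 0.0560, 0.0555 and 0.0604. The median of the 22 genes was -0.21.

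**Figure D4:**
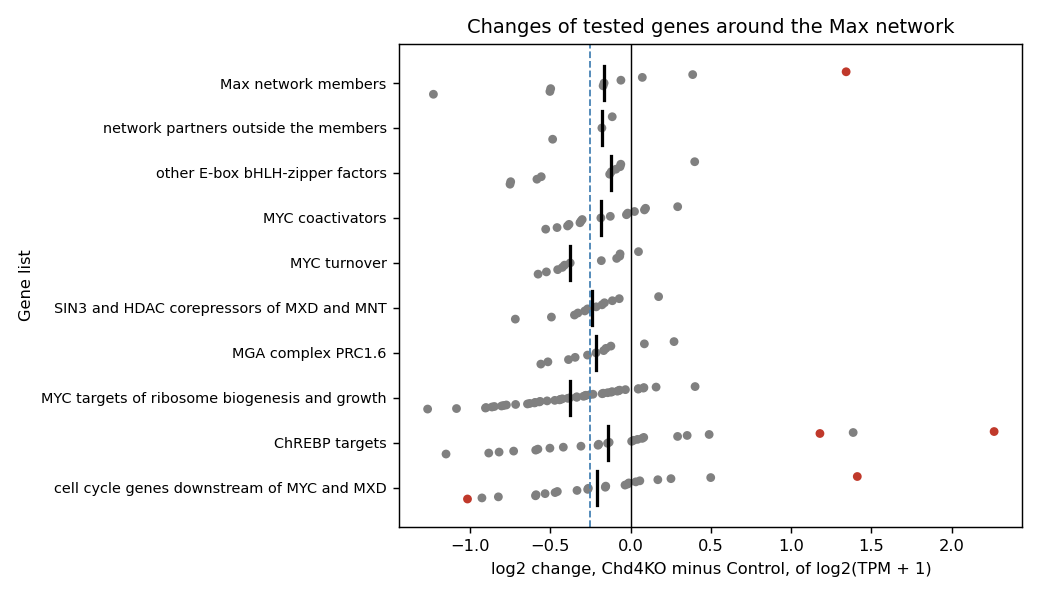
Log2 change (Chd4KO minus Control, on log2(TPM + 1)) of every tested gene of the 10 lists, 1 point a gene, red where the limma adjusted p was under 0.05, with a black bar at each list's median and a dashed line at the median of all genes tested, -0.25. Red points are Mycl, Thrsp, Pnpla3, Cdkn1c and Cdkn2b, and the list of MYC targets of ribosome biogenesis and growth has none.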

How the data were processed

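RNA of flow-sorted beta cells was sequenced after SMART-Seq v4 cDNA synthesis and Nextera XT library preparation, per the labels' protocols. The authors used build mm10 and, without versions, HISAT2, HTSeq, DESeq2, Trimmomatic and FastQC, per the submitters' processing notes. The authors deposited TPM for 55487 Ensembl identifiers in each of 8 libraries, of which 55227 (99.5%) were found in GENCODE M21. Replicates are samples with separate numbers in their titles, taken here to be separate animals.

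Chd4KO was compared with Control on the log2(TPM + 1) scale with limma (version 3.58.1, under R 4.3.3), keeping genes that reached 1 TPM in 4 or more libraries. Calls had a Benjamini-Hochberg adjusted p under 0.05 over 15189 genes. The pseudocount of 1 understates the change of low genes. Whole reads were recovered from TPM and exon length (98.5 to 98.7% of values within 0.05 of a whole number), and used for depth and for voom. Read numbers cover counting error only and are not unique molecules.

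The members and gene lists were chosen with earlier results of these data known. The text names the members, their partners and neighbours, called genes of each list (or its 2 highest where at most 1 was called) and the 5 profiles nearest to Mycl. Over 27 alternatives, pseudocount, filter, scaling, variance model, replicate block and single libraries were changed. Some results of genes in these lists are not reported here.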

Additional observations from a re-analysis of the deposited data

How the results depend on the processing

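Of 451 called genes (233 higher, 218 lower), the counts were 220 (98 and 122) at a minimum TPM of 5, 724 (444 higher) with median-of-ratios scaling, 755 (466 higher) with quantile normalisation, 1364 (578 and 786) with array weights, 833 (469 and 364) without Chd4KO replicates 2 and 4 and with the filter lowered to 2 libraries, and 782 (498 higher) with voom, while scaling without hormones and mitochondrial genes gave 351 higher. Leaving out 1 library gave 135 to 630 called, 63 to 300 higher and 37 to 330 lower at the filter of 4 libraries, and up to 866, 490 and 376 with the filter also lowered to 3. The count of called members, 1, became 0 without a filter, at a minimum TPM of 5 and with the replicate block, and was 0 with 1 library left out, or 0 to 1 with the filter also at 3 libraries. The labels do not say what replicate numbers share, and the correlations of same-numbered libraries were -0.024, 0.43, 0.077 and 0.038, so the numbers were not taken as pairs. Replicate 2 matched its own number best, and its libraries had the highest acinar sum of each group. The replicate block left 274 genes called (116 lower) and gave a limma adjusted p of 0.0678 for Mycl, 0.0881 for Pnpla3 and 0.0708 for Cdkn2b. Mycl could not be tested at a minimum TPM of 5, nor without a Chd4KO library at the filter of 4. The filter of 3 libraries was chosen after seeing the data. So was voom with library sizes by median of ratios, since voom with TMM was not run.

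Median-of-ratios scaling moved the median of all genes to -0.02 (log2) and left 6 members positive and 3 negative. Signs turned for 11 of the named genes followed over the alternatives, none of them called, and the cause was not tested. Neighbouring genes and cell type markers were not among the genes followed. With median-of-ratios scaling, the estimates were 0.087 for Mxi1, 0.22 for Mxd4, 0.055 for Mga, 0.17 for Mlx, 0.074 for Mlxip, 0.22 for Srebf1, 0.069 for Hdac1, 0.16 for Yaf2 and 0.11 for Tfdp1. With quantile normalisation, the estimates were 0.11 for Mxi1, 0.18 for Mxd4, 0.11 for Mga, 0.056 for Mlx, 0.10 for Mlxip, 0.11 for Srebf1, 0.033 for Yaf2 and 0.056 for Tfdp1. With voom, the estimates were 0.12 for Mxi1, 0.24 for Mxd4, 0.084 for Mga, 0.19 for Mlx, 0.10 for Mlxip, 0.24 for Srebf1, 0.089 for Hdac1, 0.17 for Yaf2 and 0.13 for Tfdp1. With scaling without hormones and mitochondrial genes, the estimates were 0.091 for Mxd4, 0.041 for Mlx, 0.089 for Srebf1 and 0.032 for Yaf2. With array weights, the estimates were 0.0013 for Mxi1, 0.044 for Mxd4, 0.11 for Mga, 0.0013 for Mlx, 0.016 for Mlxip, 0.22 for Srebf1, 0.087 for Tfdp1 and -0.0029 for Srm. Without Chd4KO replicates 2 and 4, the estimates were 0.029 for Mxi1, 0.25 for Mga, 0.095 for Mlx, 0.013 for Mlxip, 0.50 for Srebf1, 0.0049 for Hdac1 and 0.17 for Tfdp1. With 1 library left out, the range was -0.32 to 0.040 for Mxi1, -0.013 to 0.19 for Mxd3, -0.11 to 0.034 for Mxd4, -0.42 to 0.23 for Mga, -0.20 to 0.050 for Mlx, -0.40 to 0.17 for Mlxip, -0.28 to 0.19 for Srebf1, -0.33 to 0.019 for Hdac1 and -0.33 to 0.12 for Tfdp1. The levels of Mycn and the Control levels of Mycl rest on at most 35 reads a library.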
